A study of Mus musculus with 15 samples.

Results

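The 42 genes described here encode proteins that copy DNA and divide the cell. They were chosen by symbol: each is a gene of the cell division or DNA replication machinery whose symbol names a locus in the deposited table, 42 of 23589 loci with a gene name. The choice was made with earlier results of these data known. All 42 were found. Ccne1, Prc1 and Foxm1 are listed on both strands, so that the 42 genes cover 45 loci, and the locus on the annotated strand of the gene was used. The Foxm1 locus is merged with the neighbouring 4933413G19Rik and its values are uncertain for that reason.

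RNA was measured in 5 tissues of male C57BL/6 mice, an inbred strain: colon (intestinal mucosa), liver, fat (epididymal white adipose tissue), hypothalamus and hippocampus. The AL mice ate freely and were 5 months of age. The DR (dietary restriction) mice received 40% less food from 4 months of age for 1 month and were also 5 months of age. The DR-AL mice had the same 1 month of DR, were then fed AL for 2 months and were 7 months of age, so that the return to AL feeding and the higher age cannot be told apart. The RNA of the mice of a group was pooled, which left 1 library for each tissue and diet and no replicate check for any difference between diets. The question was which transcripts DR changes and which of these changes remain after the return to AL feeding. The 15 libraries held 21767088 to 40500130 counts on named loci, with a median of 26554699. In whole tissue, fewer dividing cells and less RNA per cell cannot be told apart.

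A cell enters the cycle when D- and E-type cyclins drive the release of E2F transcription factors from the retinoblastoma proteins. E2F then turns on the genes of the replication origins, the MCM helicase and nucleotide synthesis. Genes of mitosis follow later in the cycle and are switched on with B-Myb (Mybl2) and FoxM1. In the colon, cells divide at the base of the crypts and their progeny stop dividing as they move up. Most cells of the adult liver, fat and brain are at rest, while germ cells of the testis divide by mitosis and then by meiosis.

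A few promoters are shown because the genes of mitosis and of replication are known to be controlled through different elements. The cell cycle homology region (CHR, searched as TTTGAA) is a known binding element of the complex that controls mitotic genes. The E2F element was searched as TTTCCCGC, TTTCGCGC, TTTGCCGC or TTTGGCGC, and the CCAAT box as CCAAT, each on both strands. RefSeq promoters of the mouse (GRCm38.p6), each from 250 bases before to 50 bases after the start, were found for 33 of the 42 genes. No entry was matched for Ccna2, Ccne2, Ccnd1, Aurkb, Kif20a, Tpx2, Mcm4, Gins2 and Foxm1. A CHR word was present in 13 of 18 matched mitotic genes (72.2%), with cyclins B1 and B2, Cdk1, Mki67 and Top2a counted among them, in 2 of 12 replication genes (16.7%) and in 17.9% of all 32851 promoters of this length. An E2F word was present in 1 of 18 mitotic genes, in 5 of 12 replication genes (41.7%) and in 2.26% of all promoters. CCAAT boxes were present in 16 of 18 mitotic genes and in 9 of 12 replication genes, against 37.4% of all promoters. None of the 3 words was present in the 3 matched genes Ccne1, E2f1 and Mybl2. Words of different kinds overlapped in 2 member promoters, those of Cdca8 and Mcm7. A match is a run of letters and not a measured binding site. Only these exact words in this window were searched, so a missing word does not show that a promoter lacks the element.

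The 160 bases before the start are given for 6 genes, 5′ to 3′ on the strand of the gene, with CHR and E2F words of either strand in capitals. The first 4 belong to mitosis. Cdk1 is the kinase that starts mitosis, Cdc20 activates the ubiquitin ligase that ends it, Kif11 is a motor that pushes the spindle poles apart, and Top2a untangles the copied chromosomes.
Cdk1 (chr10:69352913-69353072, minus strand): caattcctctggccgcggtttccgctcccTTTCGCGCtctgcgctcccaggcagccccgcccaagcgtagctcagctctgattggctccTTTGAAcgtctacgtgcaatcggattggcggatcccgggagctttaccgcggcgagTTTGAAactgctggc
Cdc20 (chr4:118437344-118437503, minus strand): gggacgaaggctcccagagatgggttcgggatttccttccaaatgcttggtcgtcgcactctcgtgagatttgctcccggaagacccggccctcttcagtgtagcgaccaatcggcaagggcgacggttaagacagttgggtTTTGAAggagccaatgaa
Kif11 (chr19:37376222-37376381, plus strand): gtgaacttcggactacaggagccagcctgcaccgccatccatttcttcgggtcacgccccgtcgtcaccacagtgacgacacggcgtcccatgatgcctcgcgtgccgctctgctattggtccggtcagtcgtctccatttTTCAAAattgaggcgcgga
Top2a (chr11:99024190-99024349, minus strand): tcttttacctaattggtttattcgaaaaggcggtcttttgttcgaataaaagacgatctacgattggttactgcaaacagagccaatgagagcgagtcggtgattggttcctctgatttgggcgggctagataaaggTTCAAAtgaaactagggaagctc

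The last pair belongs to replication: Mcm5 and Mcm6 are subunits of the helicase that opens the DNA. The E2F words of Mcm5, and the first pair of Mcm6, overlap each other on opposite strands. Pcna, the clamp that holds the polymerase on DNA, and Ung, which removes uracil from it, had neither a CHR word nor an E2F word in the whole promoter window.
Mcm5 (chr8:75109349-75109508, plus strand): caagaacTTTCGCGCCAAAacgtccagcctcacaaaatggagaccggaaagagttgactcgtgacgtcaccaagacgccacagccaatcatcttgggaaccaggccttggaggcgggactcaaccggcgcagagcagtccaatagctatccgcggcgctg
Mcm6 (chr1:128359706-128359865, minus strand): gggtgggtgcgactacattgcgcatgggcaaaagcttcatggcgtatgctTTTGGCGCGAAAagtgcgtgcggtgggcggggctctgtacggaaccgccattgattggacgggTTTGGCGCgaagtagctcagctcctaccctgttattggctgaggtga

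The level per length (FPKM, fragments scaled to the length of the transcript and the depth of the library) placed these genes in the colon. Of the 42 genes, 37 had their highest mean FPKM over the 3 diets in the colon, 3 in the liver (Mcm7, Rrm2 and Ung), 2 in the hippocampus (Ccne1 and E2f1) and 0 in fat or hypothalamus. The median of the 42 means was 4.52 FPKM in the colon, 1.06 in fat, 0.49 in the hippocampus, 0.46 in the liver and 0.37 in the hypothalamus. Pcna had the highest mean FPKM in each tissue, from 16.7 in the hypothalamus to 63.5 in the colon. FPKM of the fat libraries do not follow their counts from diet to diet, as described with the fat results, so the order of fat among the tissues depends on the scale.

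**Figure D1:**
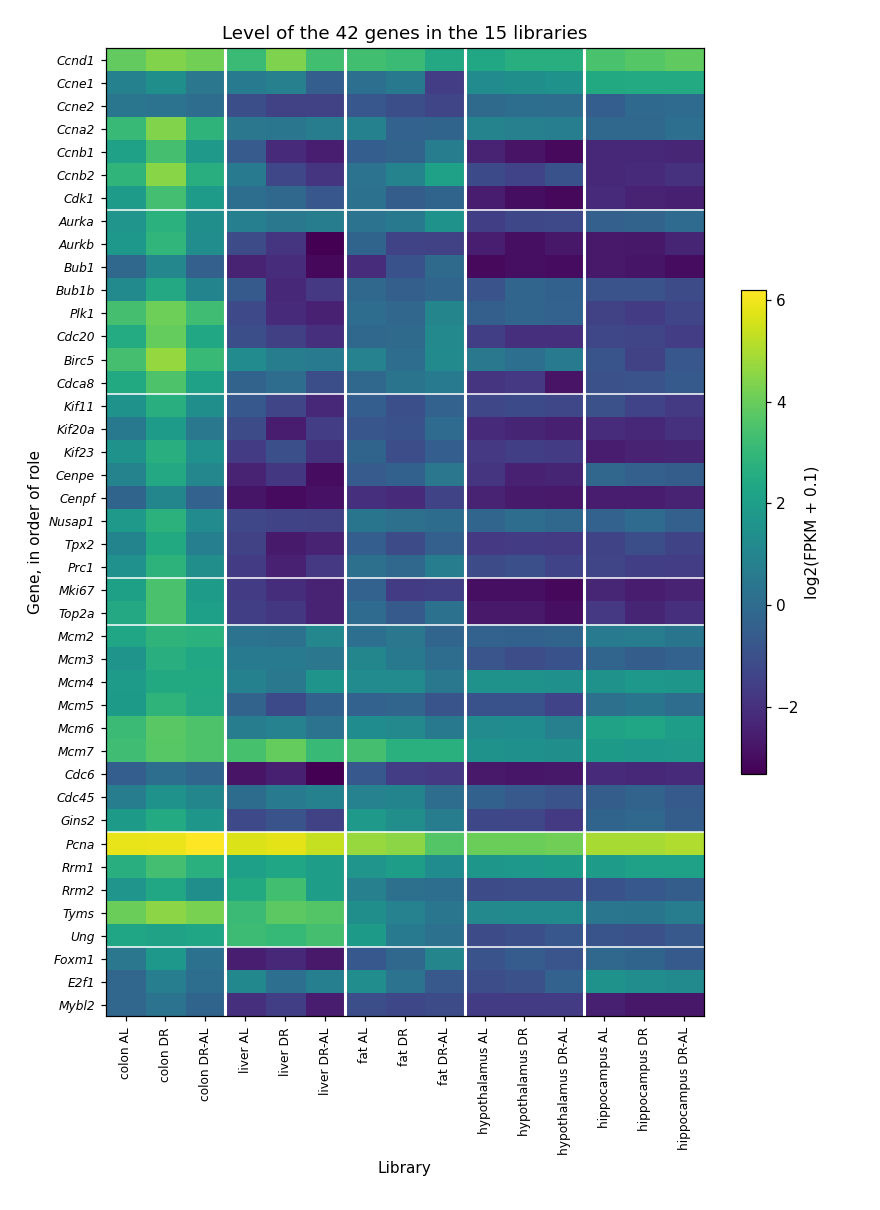
Level of the 42 genes (rows, in order of role) in the 15 libraries (columns) as log2(FPKM + 0.1), from dark (low) to yellow (high), with 1 pooled library in each column. The 3 colon columns are the brightest for 37 of the 42 genes by mean FPKM, and within the colon the DR column is brighter than its neighbours for the genes of mitosis.

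The 3 libraries of a tissue, which differ in diet, were used as its spread in a fit over all 15 libraries (edgeR quasi-likelihood test, Benjamini-Hochberg adjustment over 17476 loci, a tissue and a diet term). Colon exceeded liver for 36 of 42 genes and fell below it for 1, Ung, where 31.5% of all loci were higher and 32.5% lower. The median log2 difference was 3.33 for the 42 genes and 0.02 for all loci. The 3 largest were Plk1 (log2 difference 5.75, SE 0.75, adjusted p = 4.83e-05), a kinase of mitosis, Mki67 (5.49, SE 0.57, adjusted p = 7.47e-06), the proliferation marker Ki-67, and Top2a (5.35, SE 0.73, adjusted p = 6.78e-05). Colon exceeded fat for 16 genes, with 30.3% of all loci higher and 40.4% lower, and fell below it for E2f1. The largest difference was that of Mki67 (log2 difference 3.17, SE 0.49, adjusted p = 0.000171). The count of 16 depended on which libraries were used: it was 7 without the DR libraries and 28 without the DR-AL libraries. Of all loci, 4285 of 17527 and 5231 of 17548 were higher in these 2 fits. The hypothalamus exceeded the hippocampus for 5 genes and fell below it for 8, where 15.5% of all loci were higher and 15.3% lower. Among the 8 were Pcna (log2 difference -0.66, SE 0.12, adjusted p = 0.00191), E2f1 (-1.94, SE 0.39, adjusted p = 0.00381) and Mki67 (-1.61, SE 0.56, adjusted p = 0.05), and Tyms, which makes thymidylate, was higher in the hypothalamus (0.99, SE 0.18, adjusted p = 0.00204). Without the AL libraries this contrast gave 2 higher and 1 lower, and without the DR libraries 1 and 3. Of all loci, 1325 were higher and 1336 lower of 18425 in the first case, and 988 and 1039 of 17527 in the second.

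Within a tissue, the counts of a pair of libraries were compared as the study's methods do, by a Z test on the square root of each count over its library total with Benjamini-Hochberg adjustment over all loci with a count. A gene was called at an adjusted p below 0.05 and a share of counts at least 25% higher in either library than in the other. Such a test sets 1 library against another and takes only counting error into account; its calls are statements about the libraries and not about the diets. Log2 fold changes (on counts scaled to equal totals, with 0.5 added) are given with exact 95% intervals, which cover counting error alone.

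In the colon, the genes of cell division were higher in the DR library than in the AL library, nearly throughout. Of the 42 genes, 38 were higher and 0 lower, where 9.05% of the 18242 loci tested were higher and 10.6% lower. The median log2 fold change was 1.13, against 0 for all loci. Summed, the 42 genes reached 522, 1032 and 528 CPM (counts scaled to a library total of 1000000) for AL, DR and DR-AL. The roles of mitosis had larger medians than those of replication. The median log2 fold change was 1.36 for cyclins and Cdk1 (6 of 7 higher), 1.27 for mitotic kinases and checkpoint proteins (8 of 8), 1.47 for spindle, kinetochore and cytokinesis proteins (8 of 8), 0.66 for origin and helicase proteins (9 of 9), 0.30 for fork and nucleotide enzymes (2 of 5) and 1.00 for the transcription factors Foxm1, E2f1 and Mybl2 (3 of 3).

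Ccnb2, a B-type cyclin that activates Cdk1 (GRCm38, chr9:70407692-70421547), had 256, 1027 and 194 counts in the AL, DR and DR-AL libraries. It was the largest change, with a log2 fold change of 1.67 in DR (95% interval 1.47 to 1.88). Tpx2, which builds spindle microtubules and activates Aurora A (chr2:152847964-152895321), had 194, 753 and 156 counts in AL, DR and DR-AL, a log2 fold change of 1.62 (1.40 to 1.86). Cenpf, a kinetochore protein (chr1:189640606-189688086), had 214, 821 and 186 counts and a log2 fold change of 1.61 (1.39 to 1.83). In each of the 3 genes the DR library stands alone and the AL and DR-AL libraries lie near each other.

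Mki67 (chr7:135689784-135716361) had 1206, 4394 and 1031 counts in the AL, DR and DR-AL libraries, or 45.4, 131 and 41.2 CPM. Its log2 fold change in DR was 1.53 (1.44 to 1.63). Top2a (chr11:98992943-99024189) had 712, 2100 and 498 counts, a log2 fold change of 1.23 (1.10 to 1.36). Cdk1 had 232, 842 and 211 counts and Cdc20 had 231, 748 and 195, with log2 fold changes of 1.53 and 1.36. Kif11 had 285, 856 and 206 counts, with a share in DR of 2.39 times that in AL. Birc5 (survivin), which directs Aurora B to the centromeres, had 210, 692 and 164 counts, and Nusap1, which bundles spindle fibres, 232, 649 and 138. From Mki67 to Nusap1, the 7 genes thus had 2.22 to 2.89 times the AL share in DR, and each had a lower share in DR-AL than in AL.

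The replication genes had smaller changes on the whole. Mcm3 and Mcm5 showed the largest changes of the 6 MCM subunits, with 211, 582 and 332 counts for Mcm3 (1.13, interval 0.90 to 1.37) and 280, 719 and 376 for Mcm5 (1.03, interval 0.83 to 1.24). Mcm7 had 535, 933 and 579 counts, the smallest change of the 6 (0.47, interval 0.31 to 0.63). Mcm6 had 605, 1205 and 708 counts (0.66). Ribonucleotide reductase, which makes deoxynucleotides, was higher in both subunits (Rrm1 0.86 and Rrm2 0.77). The 4 genes that were not called were Pcna with 1625, 2280 and 1797 counts (0.16), Tyms (0.30), Ung (-0.18) and Ccne2 (0.10), an E-type cyclin of S phase entry. Ccnd1, cyclin D1 of the G1 phase, was called with a small change: it had 1272, 2247 and 1394 counts and a log2 fold change of 0.49 (0.39 to 0.59). Of the transcription factors, Foxm1 had 139, 435 and 109 counts (1.31), E2f1 42, 106 and 50 (1.00) and Mybl2 72, 128 and 63 (0.50).

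**Figure D2:**
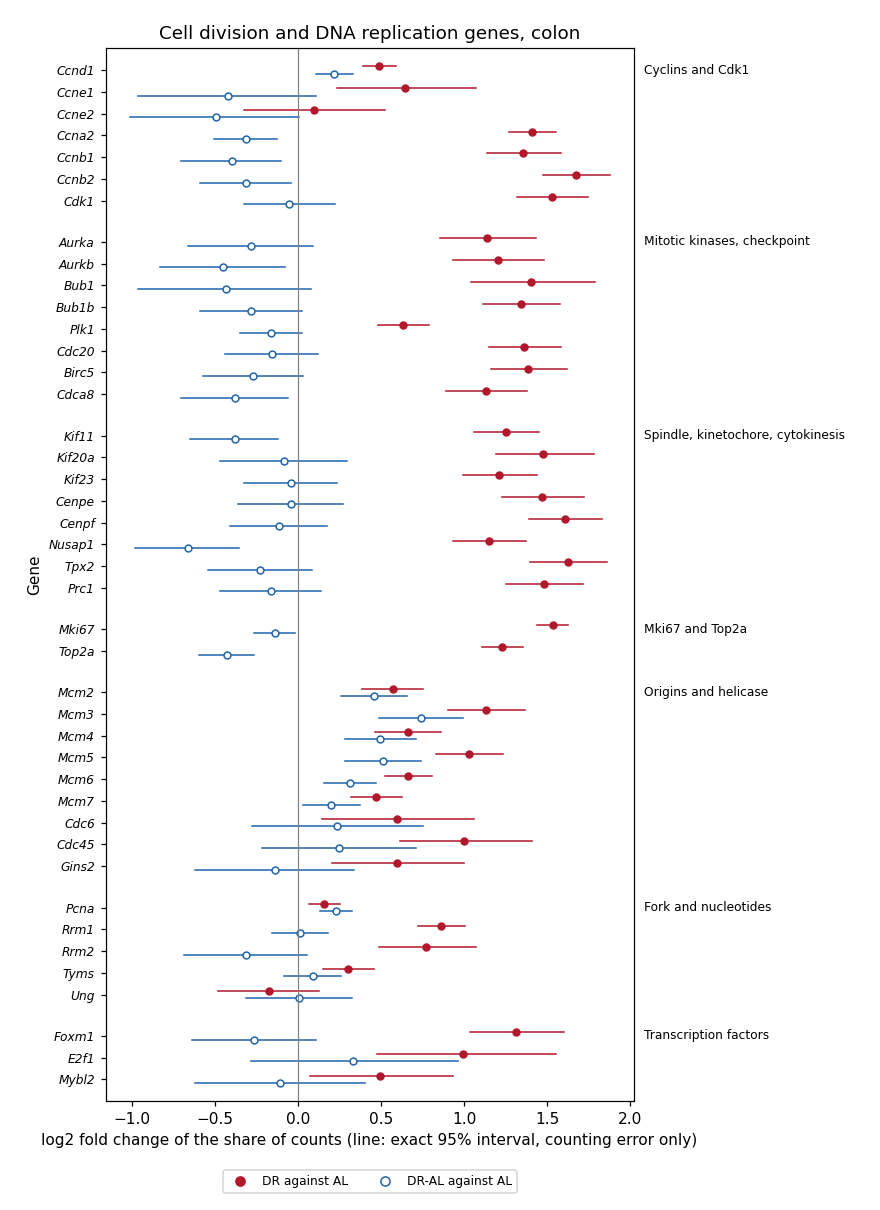
Log2 fold change of each of the 42 genes in colon, DR against AL (filled) and DR-AL against AL (open), both on the share of counts, with exact 95% intervals that cover counting error of 1 library each. The filled points lie right of 0 for 41 of 42 genes, and the open points lie on both sides of 0, with the MCM genes on the right and most genes of mitosis on the left.

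After the return to AL feeding, few of the 42 genes in colon differed from AL, in shares near those of all loci. In DR-AL against AL, 4 genes were higher (5.84% of loci) and 5 lower (8.51% of loci). With DESeq size factors the split was 5 and 4 (6.52% and 7.84% of loci). The median log2 fold change was -0.14, against -0.01 for all loci. The 4 higher genes were Mcm3 (0.74, interval 0.49 to 0.99), Mcm5 (0.51), Mcm4 (0.50) and Mcm2 (0.46), all subunits of the helicase. The 5 lower genes were Nusap1 (-0.66, interval -0.98 to -0.35), Aurkb (-0.45), Top2a (-0.43), Ccnb1 and Kif11. Against DR, 0 genes were higher and 34 lower in DR-AL (7.68% of loci lower, 6.78% higher), with a median of -1.34. The largest of these was Ccnb2 (-1.99, interval -2.22 to -1.77), followed by Tpx2 (-1.85) and Bub1 (-1.84), a kinase of the spindle checkpoint. The comparisons share libraries, so that their calls are not independent.

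For most of the genes called in colon, the excess in the DR library was larger than a preset spread between pools. With a coefficient of variation of 0.1 assumed between pools (edgeR exact test, Benjamini-Hochberg adjustment), 26 genes were higher and 0 lower in DR against AL, where 1.68% of loci were higher and 2.58% lower. Under the same assumption 26 genes were lower in DR-AL against DR (1.77% of loci lower and 1.89% higher), and 0 genes were called in DR-AL against AL (0.619% of loci higher and 1.24% lower), where the Z test called 9. The assumed spread is not a measured one. It is smaller than the common coefficient of variation of 0.301 in the fit over all 15 libraries. That value spans 5 tissues and is not a spread between pools of 1 tissue either.

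Other genes of the same machinery in colon moved with the 42. In a list of 45 further genes of mitosis, 43 were higher in DR and 0 lower, with a median log2 fold change of 1.18. The genes with most counts there were Smc4 (0.55), Cks2 (0.59) and Ncapd2 (1.04), which were higher, and Pttg1, the securin, which had a value of -0.21 and was not called. In DR-AL, 0 of the 45 were higher and 10 lower, where 5.84% of all loci were higher and 8.51% lower. In a list of 40 further genes of replication, 22 were higher in DR and 0 lower (median 0.51), among them the DNA methyltransferase Dnmt1 (0.53) and the ligase Lig1 (0.40), and 1 was higher and 4 lower in DR-AL. Of 15 Cdk inhibitors and retinoblastoma family genes, 1 was higher in DR and 3 lower, near the shares of all loci (9.05% and 10.6%). The higher gene was Cdkn2c (0.80, interval 0.52 to 1.10). The lower genes were Cdkn1b (-0.56), Cdkn1c (-1.17) and Rb1 (-0.33). All 4 are known as brakes on the cycle.

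Marker genes of other cell types in the colon mucosa also differed between these libraries. Markers of crypt stem cells summed to 134, 184 and 152 CPM (AL, DR and DR-AL), with 5 of 6 higher in DR and Lgr5, the defining marker, at 124, 165 and 126 counts and not called. Markers of absorptive cells summed to 18079, 15603 and 15449 CPM (1 of 6 higher and 2 lower in DR), and those of goblet cells to 20934, 23357 and 25917 CPM (1 of 7 higher in DR). B cell markers summed to 8.70, 2.51 and 19.8 CPM (4 of 4 lower in DR) and T cell markers to 8.74, 2.57 and 8.51 CPM (4 of 5 lower in DR). Smooth muscle markers summed to 40.6, 57.9 and 20.4 CPM (3 of 5 higher in DR). The part of cell composition in the colon result was not tested.

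**Figure D3:**
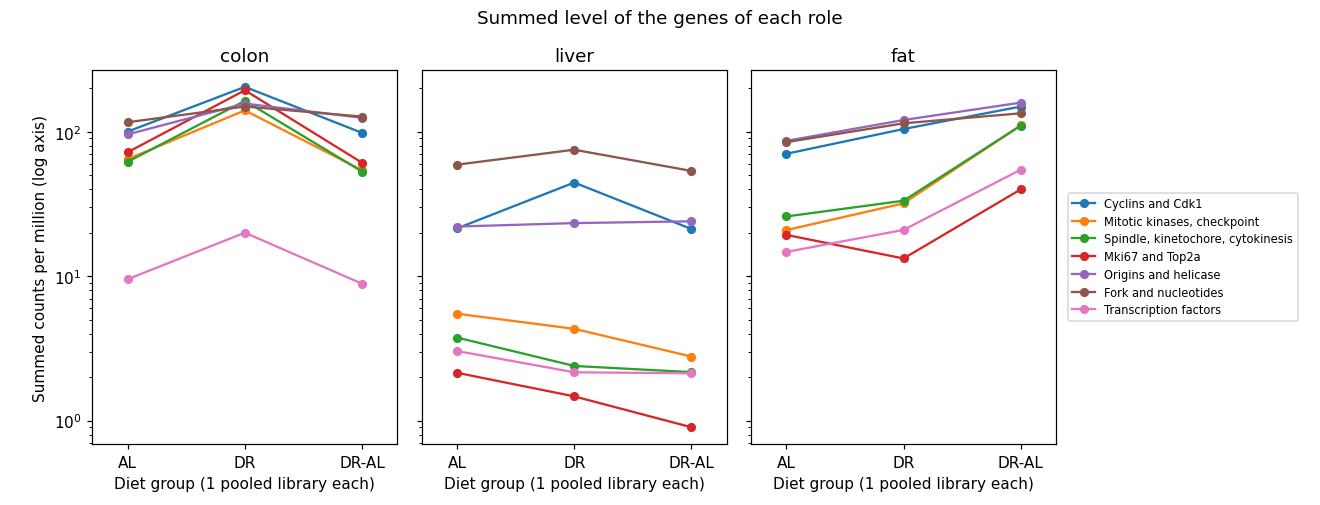
Summed CPM (log axis) of the genes of each role in the AL, DR and DR-AL libraries of colon, liver and fat, with 1 pooled library per point and lines joining the libraries of a role. All 7 roles peak at DR in colon, in liver the cyclins are highest at DR through Ccnd1 (371 counts in AL and 852 in DR) while the other roles of mitosis are lower in DR than in AL, and in fat all roles are highest at DR-AL.

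In the liver, most division genes had few counts, and the genes called higher in DR were Ccnd1, Rrm2 and Tyms. The median count of the 42 genes was 24.5 for AL, 13 for DR and 11 for DR-AL, and 14 genes had a mean of at least 30 counts. In DR against AL, 3 genes were higher (18.1% of the 17408 loci tested) and 6 lower (9.93% of loci), with a median log2 fold change of 0.07 against 0.10 for all loci. Ccnd1 (chr7:144929931-144939925) had 371, 852 and 423 counts in the AL, DR and DR-AL libraries, a log2 fold change of 1.38 (1.21 to 1.56). Rrm2, the regulated subunit of ribonucleotide reductase (chr12:24708241-24714146), had 125, 219 and 94 counts (0.99, interval 0.67 to 1.32). Tyms had 267, 337 and 233 counts (0.52, interval 0.28 to 0.76). In all 3 genes the DR library was the highest and the DR-AL library was near or below AL.

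The 6 lower genes in liver had few counts. Ccnb1 had 15, 3 and 2 counts in the AL, DR and DR-AL libraries, Ccnb2 25, 5 and 3, and Bub1b, a checkpoint kinase, 25, 5 and 9. Kif20a, a motor of cytokinesis, had 17, 3 and 11 counts and Tpx2 14, 3 and 5. E2f1 (chr2:154559407-154569892) was the only one with a mean of at least 30 counts, at 64, 30 and 46 (-0.90, interval -1.59 to -0.26). Mki67 had 35, 19 and 15 counts and Top2a 18, 13 and 7, neither called in DR. Pcna had 733, 744 and 613 counts and was not called either. Ccnd1, Pcna, Mcm7, Tyms, Rrm1, Rrm2 and Ung held most of the summed level in liver, which was 117, 153 and 107 CPM (AL, DR and DR-AL).

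In DR-AL against AL in liver, 2 genes were higher (15.1% of loci) and 9 lower (15.8% of loci). The higher genes were Mcm4 with 78, 56 and 138 counts (0.83, interval 0.43 to 1.26) and Mcm2 with 45, 42 and 78 (0.80, interval 0.26 to 1.37), both helicase subunits. The 9 lower genes had at most 35 counts in AL, and included Ccnb1, Ccnb2, Bub1b, Birc5, Plk1, Kif11 and Mki67. The other 2 were Aurkb, with 8, 4 and 0 counts, and Ccne1, with 32, 37 and 14. The upper limit behind a count of 0 is 3 counts. Against DR, 2 genes were higher in DR-AL (16.9% of loci) and 11 lower (24.0% of loci), led among those with at least 30 counts by Rrm2 (-1.39), Ccnd1 (-1.18) and Tyms (-0.70). For Aurkb and Cdc6, both at 0 in DR-AL, the exact interval reached no change. With the coefficient of variation of 0.1, the calls were 2 higher and 2 lower in DR against AL, and 1 higher and 2 lower in DR-AL against AL, where 5.88% and 2.96%, and 5.64% and 4.96%, of loci were called.

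The list of 45 further mitosis genes gave 2 higher and 10 lower in the DR liver, and 2 higher and 15 lower in DR-AL. For the 40 further replication genes, of which 39 were tested, there were 6 higher and 3 lower in DR, and 4 and 8 in DR-AL. Of all loci, 18.1% were higher and 9.93% lower in DR, and 15.1% and 15.8% in DR-AL. Red cell markers in liver summed to 107, 35.7 and 70.7 CPM in AL, DR and DR-AL (1 of 4 lower in DR), B cell markers to 5.22, 1.70 and 3.96 CPM (3 of 4 lower in DR) and macrophage markers to 57.1, 57.2 and 67.7 CPM. Hepatocyte markers stayed between 49046 and 53031 CPM. The part of blood cells in the lower counts of mitosis genes was not tested.

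In fat, most of the 42 genes took a larger share of the counts after DR-AL than in AL, and markers of testis germ cells rose in the same libraries. In DR against AL, 21 genes were higher (35.3% of the 20382 loci tested) and 4 lower (10.4% of loci), with a median log2 fold change of 0.46 against 0.23 for all loci. With DESeq size factors the split was 16 higher and 6 lower, where 26.2% of loci were higher and 16.6% lower. In DR-AL against AL, 37 genes were higher (46.1% of loci) and 1 lower (11.9% of loci), with a median of 1.22 against 0.39 for all loci. Against DR, 31 genes were higher in DR-AL (38.4% of loci) and 1 lower (13.3% of loci), with a median of 1.04 against 0.28. The summed level was 323, 440 and 760 CPM (AL, DR and DR-AL).

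On the FPKM scale, the medians against AL had the opposite sign, and the median of DR-AL against DR was 0.097. A count in the fat libraries was worth less FPKM in DR and DR-AL than in AL: over loci with at least 30 counts in both libraries, the FPKM change lay 0.73 below the count change on the log2 scale in DR and 1.62 below it in DR-AL. The median of the 42 genes by FPKM (pseudocount 0.1) was -0.23 in DR and -0.37 in DR-AL, against -0.38 and -1.01 for all loci. By FPKM, 16 genes were higher in DR-AL and 26 lower. Relative to the median of all loci, the 42 genes lay above it by 0.82 on counts, 0.82 with size factors and 0.63 by FPKM in DR-AL, and by 0.23, 0.23 and 0.15 in DR. In the other tissues the 2 scales differed by at most 0.13 for a comparison with AL.

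Bub1 showed the largest changes in fat. It had 19, 65 and 354 counts in the AL, DR and DR-AL libraries, a log2 fold change of 1.95 in DR (1.22 to 2.79) and of 4.12 in DR-AL (3.49 to 4.91). Foxm1 had 93, 242 and 1149 counts, with 1.57 (1.23 to 1.94) and 3.56 (3.26 to 3.89). Ccnb2 had 64, 148 and 773 counts, with 1.40 and 3.52 (3.16 to 3.92). Cenpe, a kinetochore motor, had 39, 92 and 393 counts and reached 1.43 in DR (0.88 to 2.02). In each of these genes the DR-AL library was the highest, also by FPKM, where Bub1 had 0.13, 0.42 and 0.87, and Ccnb2 1.12, 1.79 and 4.22.

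The proliferation marker Mki67 was lower in the DR library. It had 312, 142 and 357 counts in the AL, DR and DR-AL libraries, a log2 fold change of -0.93 in DR (-1.23 to -0.65) and 0.13 in DR-AL, which was not called. Top2a had 195, 161 and 737 counts, with -0.08 in DR, not called, and 1.85 in DR-AL. The other genes lower in DR were Ccna2, the cyclin of S phase and G2, with 161, 90 and 222 counts (-0.64, interval -1.03 to -0.26), Ung with 215, 134 and 217 (-0.48, interval -0.80 to -0.16), and E2f1 with 233, 161 and 162. E2f1 was the gene that was lower in DR-AL as well (-0.58, interval -0.88 to -0.29). Ccne1 had 74, 144 and 54 counts and was the gene lower in DR-AL than in DR (-1.67).

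The replication genes of fat had smaller median changes than the mitotic kinases. In DR-AL against AL, the median log2 fold change was 2.56 for mitotic kinases and checkpoint proteins (7 of 8 higher), 1.96 for spindle, kinetochore and cytokinesis proteins (8 of 8), 0.78 for origin and helicase proteins (9 of 9) and 0.57 for fork and nucleotide enzymes (4 of 5). Of all loci, 46.1% were higher, and their median was 0.39. Mcm7 had 877, 870 and 1851 counts (0.19 in DR, not called, and 1.02 in DR-AL). Pcna (chr2:132249162-132253314) had 1112, 1348 and 1662 counts (0.48 and 0.52), and Ccnd1 1349, 1803 and 2361 (0.62 and 0.75). Birc5 had 85, 55 and 267 counts, with -0.43 in DR, not called, and 1.58 in DR-AL. Nusap1 had 105, 138 and 309 counts (0.59 and 1.49). By FPKM, Pcna was 26.1, 22.7 and 12.4, and Ccnd1 9.72, 8.88 and 5.27, so that their direction was the opposite on that scale.

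**Figure D4:**
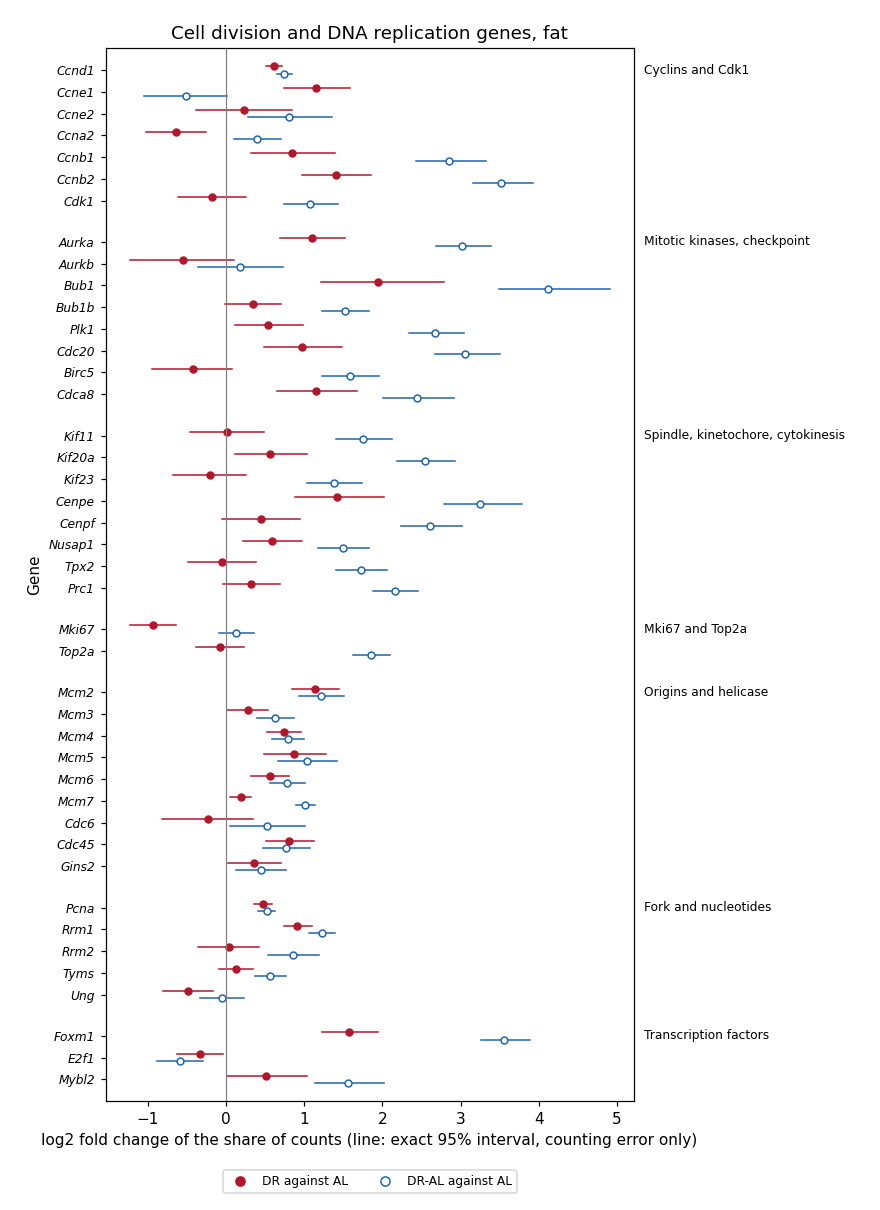
Log2 fold change of each of the 42 genes in fat, DR against AL (filled) and DR-AL against AL (open), both on the share of counts, with exact 95% intervals that cover counting error of 1 library each. The open points reach 4.12 for Bub1 and lie right of 0 for 39 genes, the filled points lie on both sides of 0 with Mki67 farthest to the left at -0.93, and on the FPKM scale all points would shift left.

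Testis germ cell transcripts were low in AL fat and higher in DR and DR-AL. In AL, 3 of 5 markers before meiosis, 7 of 10 of meiosis and 3 of 8 of spermatids had at most 3 counts, and Sycp3, a protein of meiotic chromosomes, had 218 counts, most of its list. Markers of germ cells before meiosis summed to 0.57, 41.3 and 214 CPM (AL, DR and DR-AL) (4 of 5 higher in DR, 5 of 5 in DR-AL). Markers of meiosis summed to 9.92, 174 and 884 CPM and those of spermatids to 3.62, 513 and 2561 CPM, with 10 of 10 and 8 of 8 higher in both. Ddx4, a germ cell helicase, had 6, 440 and 2627 counts, and Ldhc, a dehydrogenase of meiotic and later germ cells, 2, 1944 and 13609. Epididymis markers summed to 930, 3238 and 5162 CPM (6 of 6 higher in DR, 4 of 6 in DR-AL). Between DR and DR-AL the 3 germ cell lists rose by a factor of 5.19, 5.09 and 4.99, and the 42 genes together by 1.73. The median factor of the 42 genes was 2.06, from 0.313 for Ccne1 to 4.54 for Bub1. In the liver the 3 lists summed to at most 1.39 CPM in any library, and in colon to at most 1.09. In AL hypothalamus and hippocampus, the markers before meiosis summed to 6.64 and 6.10 CPM, those of meiosis to 7.31 and 3.56 CPM and those of spermatids to 0.067 and 0.12 CPM.

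**Figure D5:**
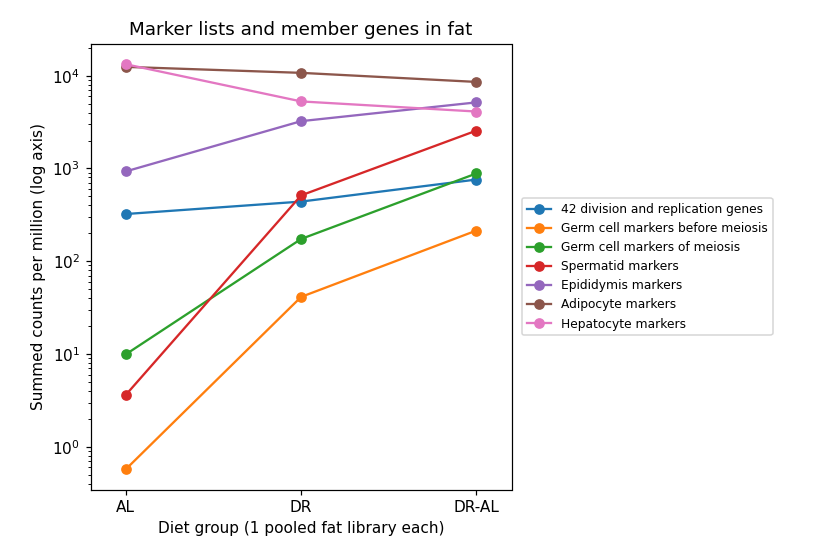
Summed CPM (log axis) of the 42 genes and of marker lists in the AL, DR and DR-AL fat libraries, with 1 pooled library per point. The 3 germ cell lists rise from at most 9.92 CPM in AL to between 214 and 2561 CPM in DR-AL, the 42 genes rise from 323 to 760 CPM, and adipocyte markers fall from 12460 to 8575 CPM.

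Other markers in fat moved as well. Adipocyte markers summed to 12460, 10740 and 8575 CPM, hepatocyte markers to 13298, 5285 and 4110 CPM, T cell markers to 5.61, 5.87 and 13.0 CPM, macrophage markers to 145, 195 and 171 CPM and smooth muscle markers to 1094, 3310 and 1005 CPM. Of the hepatocyte markers, 6 of 6 tested were lower in DR and in DR-AL than in AL (10.4% and 11.9% of loci lower). Their median log2 fold changes were -6.54 and -8.84, a larger fall than that of their sum. The part of germ cells, and of each of these cell types, in the higher levels of the 42 genes in fat was not tested. The list of 45 further mitosis genes gave 19 higher and 6 lower in DR, and 37 higher and 2 lower in DR-AL (median 1.42). For the 40 further replication genes there were 23 higher and 5 lower in DR, and 30 and 4 in DR-AL (median 0.94). Of all loci, 35.3% were higher in DR and 46.1% in DR-AL, where their median was 0.39.

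In the brain regions, few of the 42 genes were called. In hypothalamus, 1 gene was higher in DR (4.33% of the 19320 loci tested) and 0 lower (2.73% of loci). It was Bub1b with 96, 183 and 150 counts in the AL, DR and DR-AL libraries (0.79, interval 0.42 to 1.16). In DR-AL against AL, 2 were higher (6.06% of loci) and 4 lower (9.03% of loci). Bub1b (0.57) and E2f1, with 52, 63 and 94 counts (0.78, interval 0.28 to 1.30), were the higher ones. Mcm6 with 367, 431 and 270 counts (-0.51, interval -0.75 to -0.28), Mcm5 with 81, 88 and 52 (-0.71), Cenpf with 60, 44 and 36 (-0.80) and Ccnb1 with 10, 5 and 2 were the lower ones. Against DR, 1 gene was higher (2.82% of loci) and 3 lower (6.80% of loci) in DR-AL. Mki67 had 22, 24 and 12 counts there, Top2a 17, 20 and 10, and Pcna 975, 1118 and 1056, none of them called. Ccnd1 had 1066, 1436 and 1288 counts and was not called.

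In hippocampus, where neural stem cells of the dentate gyrus still divide in the adult, 0 genes were higher in DR (1.37% of the 18804 loci tested) and 3 lower (2.67% of loci). Top2a had 67, 23 and 27 counts in the AL, DR and DR-AL libraries (-1.15, interval -1.92 to -0.46). Mki67 had 80, 37 and 39 counts (-0.73, interval -1.34 to -0.16), and Cenpe 122, 62 and 56 (-0.60, interval -1.07 to -0.15). In these 3 genes the AL library was the highest. Markers of neurogenesis summed to 57.7, 61.7 and 62.9 CPM there (AL, DR and DR-AL), with 1 of 5 higher and 0 lower in DR, and 2 of 5 higher in DR-AL. In DR-AL against AL, 0 genes were higher (4.00% of loci) and 3 lower (2.17% of loci): Kif11 with 92, 46 and 30 counts (-0.92, interval -1.58 to -0.32), Mcm2 (-0.39) and E2f1 (-0.37). Against DR, 0 genes were called in either direction (3.63% of loci higher and 1.26% lower). Pcna had 1900, 1337 and 1121 counts and Ccnd1 2159, 1764 and 1653 (log2 fold changes of -0.13 and 0.08 in DR), neither called. With the coefficient of variation of 0.1, 0 of the 42 genes were called in either brain region, where between 0.00532% and 2.12% of loci were called in a direction.

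A diet effect common to the 5 tissues was not detected for any of the 42 genes. Per the methods, the tissues of a diet came from the same set of mice, so that the 5 libraries of a diet are not independent animals. The edgeR fit over 15 libraries, with Benjamini-Hochberg adjustment, called 0 genes in DR against AL, with 1 at an unadjusted p under 0.05, and 0 in DR-AL against AL, with 0 at that level. DESeq2 called 0 in both, with 2 and 0 at an unadjusted p under 0.05, and gave an adjusted p for 39 of the 42 genes in DR-AL. Over all loci, 0.0114% and 0.00572% were called. The median log2 fold change of the 42 genes was 0.19 in DR and 0.08 in DR-AL, against 0.01 in both for all loci, and the common coefficient of variation between libraries was 0.301.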

How the data were processed

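RNA of pooled mice was sequenced as stranded, paired-end libraries after depletion of ribosomal RNA. The authors trimmed and aligned the reads and removed duplicates in Strand software, and normalized each tissue to its AL group with DESeq for their own analysis; the methods name mm10 and the submitters' processing notes name mm9 and DESeq2. The table's coordinates do not match GRCm38 (3 of 42 genes overlap), so that positions are from GENCODE M21 (GRCm38) and promoters from RefSeq (GRCm38.p6). The deposited values are read counts per locus, without normalization, and FPKM values computed by the authors, whose scaling between libraries is not given in the sources used here. The 42 genes and all lists were chosen with earlier results of these data known.

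CPM are counts divided by the library's total on named loci and multiplied by 1000000; loci without a name, 0.258% to 1.39% of the counts, were left out of library totals and tests. The Z test left out loci at 0 in all 3 libraries of a tissue. Exact intervals are Clopper-Pearson intervals of the share of a pair's counts, at 95%. The fit over all libraries used edgeR 4.0.16 (TMM, filterByExpr, 8 residual degrees of freedom; SE from the log2 difference and the F statistic) and DESeq2 1.42.0 as the alternative, in R 4.3.3; other steps used Python 3.11.15 with scipy 1.17.1. The Z test and the edgeR fit were tested on simulated counts. All 42 genes could be named; values by library are given for Mki67, Top2a, Ccnd1, Pcna, the gene of each role with the highest mean FPKM, and up to 3 called genes per direction with the largest change and a mean of at least 30 counts, and others named were chosen after their values were seen. A group held 1 library, and p-values measure counting error or the spread between tissues and diets. No library was left out.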

Additional observations from a re-analysis of the deposited data

Results flagged for a closer look

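Some genes were called in opposite directions in different tissues, which is why they are listed; the difference between tissues was not tested for any of them, and each value compares 1 library with another. The share of all loci called in opposite directions was not counted, so the counts of such genes have no background beside them. For DR against AL there were 10 such genes, and all 10 were higher in colon. Each is given with the log2 fold change in the tissue where it was lowest. In liver these were Ccnb1 (-1.98), Ccnb2 (-2.04), Bub1b (-2.04), Kif20a (-2.16), Tpx2 (-1.89) and E2f1 (-0.90). In fat they were Mki67 (-0.93) and Ccna2 (-0.64), and in hippocampus Top2a (-1.15) and Cenpe (-0.60). Mki67 was also lower in hippocampus (-0.73) and E2f1 in fat (-0.33). The liver values rest on at most 25 counts in AL, except for E2f1.

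For DR-AL against AL there were 13 such genes. Of these, 12 were higher in fat, where 46.1% of all loci were higher and germ cell markers were also higher. In liver, Ccnb1 (-2.61), Ccnb2 (-2.85), Bub1b (-1.41), Plk1 (-1.82), Birc5 (-1.01) and Kif11 (-1.69) were lower. In hypothalamus, Cenpf (-0.80), Mcm5 (-0.71) and Mcm6 (-0.51) were lower, in colon Nusap1 (-0.66) and Top2a (-0.43), and in hippocampus Mcm2 (-0.39). Ccnb1 was also lower in colon (-0.40) and hypothalamus (-2.14), and Kif11 in colon (-0.38) and hippocampus (-0.92). E2f1 was higher in hypothalamus (0.78) and lower in fat (-0.58) and hippocampus (-0.37).

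Reads on the strand opposite Prc1 were a signal outside the main measurement. They numbered 139, 197 and 149 (AL, DR and DR-AL) in hypothalamus, above the 59, 77 and 48 counts on the strand of the gene. They numbered 27, 40 and 57 in fat, 35, 35 and 39 in hippocampus, and at most 10 in colon and 5 in liver.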

How the results depend on the processing

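The calls within a tissue have no replicate behind them, and counting error limits them most in liver. Of 136 results recomputed under another setting, 104 stayed within the limit set for a change, which looked at size and not at direction. Some medians near 0 changed sign within that limit. In liver, DR against AL, the median was 0.07, and it was -0.02 with DESeq size factors and -0.10 by FPKM (pseudocount 0.1). The results beyond the limit follow, and the cause was not tested unless named. With FPKM, the fat medians reversed: -0.23 (pseudocount 0.1) and -0.12 (pseudocount 1) in DR against AL, and -0.37 and -0.21 in DR-AL against AL, while DR-AL against DR was 0.097 and 0.036. With DESeq size factors the median of DR-AL against AL in fat was 0.88. With an FPKM pseudocount of 1, which shrinks low values by construction, the colon medians were 0.83 in DR against AL and -0.83 in DR-AL against DR.

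A fold change of at least 2 left, as is built into it, fewer genes (in brackets, the share of all loci called in either direction). In colon it left 0 in DR-AL against AL (4.08%), and in liver 8 in DR-AL against DR (14.9%). In fat it left 8 in DR (23.9%) and 25 in DR-AL against AL (33.5%). All of these fat genes were higher, where 19.2% and 28.9% of loci were higher. In hypothalamus it left 0, 1 and 1 in DR against AL, DR-AL against AL and DR-AL against DR (2.42%, 4.61% and 3.08%). In hippocampus it left 1 in DR (1.31%) and 0 in DR-AL against AL (1.62%). With a coefficient of variation of 0.1, which adds spread, the counts were 0 for DR-AL against AL in colon and 4, 3 and 6 for the 3 liver comparisons. They were 16 for DR against AL in fat, 0 for all 3 comparisons in hypothalamus, and 0 for DR and for DR-AL against AL in hippocampus. The 16 in fat were 15 higher and 1 lower, where 22.3% of loci were higher and 6.39% lower. The 6 in liver, DR-AL against DR, were 1 higher and 5 lower, where 9.13% of loci were higher and 13.6% lower. Without the libraries of 1 diet, the genes that differed numbered 8 to 29 for colon against fat, 3 to 9 for hypothalamus against hippocampus and 30 to 35 for colon against liver. Of 17527 to 18425 loci tested, those higher numbered 4285 to 5231, 988 to 2126 and 4627 to 5233 for these 3 contrasts. Those lower numbered 5567 to 6940, 1039 to 2252 and 4705 to 5228. Leaving out the libraries of 1 tissue called 0 genes in every case for DR and DR-AL against AL over the 5 tissues. The edgeR fits hold tissue and diet as terms, so that diets were compared within tissues. No paired analysis was possible by replicate number because each tissue and diet has 1 library.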
